A study of Homo sapiens with 6 samples.

Results

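The 10 genes described here are the core set by which the epithelial-mesenchymal transition (EMT) is usually followed: the transcription factors ZEB1, ZEB2, SNAI1, SNAI2, TWIST1 and TWIST2, the classical cadherins CDH1 (E-cadherin) and CDH2 (N-cadherin), the intermediate filament gene VIM (vimentin) and the epithelial adhesion gene EPCAM. They were chosen by gene name, and all 10 were among the 32679 genes of the deposited table. HEY, a line grown from a human ovarian carcinoma, was profiled by RNA-seq in 2 forms: 3 samples held the control construct (shNC) and the other 3 a hairpin that targets the splicing factor PQBP1 (shPQBP1). Per the study's methods the stable lines were made by lentiviral infection and puromycin selection. All samples were labelled day 3, while a supplementary legend of the paper gives a shorter doxycycline treatment for its HEY knockdown cells. The shPQBP1 samples received doxycycline, which switches on the hairpin, at 1 µg per ml, and the shNC samples are labelled as untreated, so hairpin and doxycycline cannot be told apart. The comparison asked how the level of each EMT gene differed upon PQBP1 knockdown. The design text calls the samples biological triplicates without saying whether they were separate cultures, so p-values measure the spread between these samples, which may be technical.

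In EMT, epithelial cells loosen E-cadherin junctions and take on the N-cadherin and vimentin of mesenchymal cells, which is known as the cadherin switch. The ZEB, SNAIL and TWIST proteins drive it, largely by binding E-box motifs in the promoters of epithelial genes such as CDH1 and recruiting corepressors. ZEB1 and ZEB2 are in turn held down by the microRNAs of the miR-200 family, which bind their 3′ untranslated regions (UTRs), and the ZEB proteins repress the miR-200 genes. In ovarian carcinoma, cells of mixed epithelial and mesenchymal character are common.

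HEY cells showed a mesenchymal cadherin pattern in both groups, with abundant CDH2 and hardly any CDH1. VIM was abundant, and so was the keratin gene KRT18 (mean 81.4 FPKM in shNC and 89.6 FPKM in shPQBP1). None of the 7 EMT genes that could be tested was called upon PQBP1 knockdown at an adjusted p under 0.05 (limma). ZEB1 had the smallest unadjusted p of the 7 in the fit of all 6 samples as deposited, with 4.51 ± 1.61 FPKM (sequenced fragments, corrected for transcript length and for library size) in shNC and 7.96 ± 1.73 in shPQBP1 (SD, n = 3 each), and did not pass the adjusted threshold. VIM had the smaller p under quantile normalization and after removal of trends on GC content and transcript length, and passed the threshold there. Without shNC replicate 1, VIM (unadjusted p = 0.0194), CDH2 (0.0241) and SNAI2 (0.0281) were also ahead of ZEB1 (0.0536, limma). Without shPQBP1 replicate 1, SNAI2 (0.0468) was ahead of ZEB1 (0.0602, limma). None of these passed the adjusted threshold. SNAI2 had a larger log2 fold change with overlapping groups, and SNAI1 was lower in all 3 shPQBP1 samples at levels of at most 0.31 FPKM in any sample.

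The miR-200 sequences are shown because ZEB1 and ZEB2 are set apart from the other 8 genes by the number of their seed matches. The mature forms (RefSeq, GRCh38.p14) fall into 2 seed groups, with the seed (bases 2 to 8) in capitals.
hsa-miR-200b-3p: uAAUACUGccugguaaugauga
hsa-miR-200c-3p: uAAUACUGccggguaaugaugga
hsa-miR-429: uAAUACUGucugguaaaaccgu
hsa-miR-200a-3p: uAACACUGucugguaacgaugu
hsa-miR-141-3p: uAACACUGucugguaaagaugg

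The first 3 share one seed and the last 2 share another, and the groups differ within the seed. The DNA match to the first seed, CAGTATT, was counted on the transcript strand in the 3′ UTR of each gene's canonical transcript (GENCODE release 44, hg38). ZEB1 held 6 matches in 2540 bases and ZEB2 held 5 in 5370 bases. SNAI2 held 1, and the other 7 genes held none. Of 19538 UTRs, of any length, 16.06% held at least 1 match, 0.0409% at least 5 and 0.0102% at least 6. The match to the second seed, CAGTGTT, occurred 3 times in ZEB1 and 4 times in ZEB2 and in none of the other 8 genes, against 18.17% of UTRs with at least 1. A match is a description of the letters, not evidence of binding in these cells.

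Of the 11 CAGTATT matches in ZEB1 and ZEB2, 5 with an A right after the match, a context known to favour microRNA repression, are shown to place them on the genes (hg38, match in capitals).
ZEB1, chr10:31527622-31527650, plus strand: ttttatcttatCAGTATTatcactcttat
ZEB1, chr10:31528496-31528524, plus strand: tttttacctatCAGTATTattttatttct
ZEB1, chr10:31528566-31528594, plus strand: ttcaaacctggCAGTATTaatacccttct
ZEB2, chr2:144388979-144389007, minus strand: ctacaatgcatCAGTATTatgattcctct
ZEB2, chr2:144388621-144388649, minus strand: agcacccatgtCAGTATTagaagaatagg

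The A follows 3 of the 6 matches in ZEB1 and 4 of the 5 in ZEB2, and the sites shown were picked for it. The mature microRNAs were not measured here. Of their precursors and host, MIR200CHG and MIR141 were listed at 0 in all 6 samples, MIR200A at 0.01 FPKM in 1 sample and MIR429 at 0.19 FPKM in 1 sample. MIR200B and MIR200C had no entry by gene name in the deposited table. Per the study's methods poly(A) RNA was purified, and how well short precursors were captured is not known, so these zeros do not show absence.

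The target of the hairpin was checked first. PQBP1 was at 7.18, 6.67 and 6.93 FPKM in the shNC samples and at 1.68, 1.72 and 1.44 FPKM in the shPQBP1 samples. It fell by 2.04 on the log2 scale (SE 0.10, adjusted p = 0.00154, limma), and the groups were far apart. Summed FPKM ranged from 278285.8 to 318484.3 per sample, and 26.5% to 29.8% of genes were at 0. Read depth is unknown. The library labelled shNC replicate 1 stood apart, its highest correlation with any other sample being 0.955 where the other 5 samples reached 0.965 to 0.969, so values without it are given where they matter. Of the ovarian carcinoma markers, PAX8 was at 12.33 to 24.08 FPKM and KRT7 at 55.04 to 70.35 FPKM, whereas MUC16 did not exceed 0.01 FPKM and WFDC2 did not exceed 0.08 FPKM. Of the 7 markers of leukocytes, endothelium and fibroblasts in the table, PTPRC was at 0 in all samples, and the 6 other than CD68 summed to 0.31 to 0.55 FPKM in shNC and 0.08 to 0.41 FPKM in shPQBP1. CD68 was at 9.12 to 15.57 FPKM in shNC and 12.14 to 21.16 FPKM in shPQBP1.

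**Figure D1:**
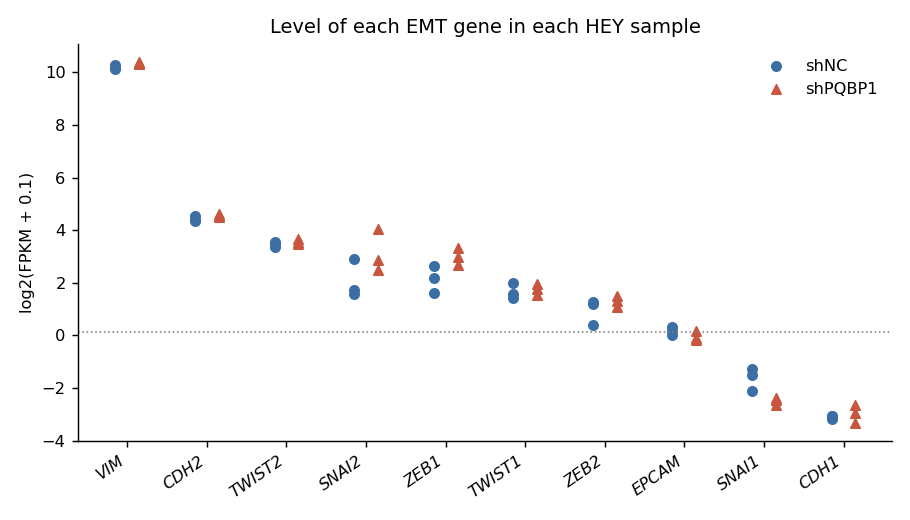
FPKM of the 10 EMT genes in each sample, as log2(FPKM + 0.1), ordered by mean level, with shNC samples as circles and shPQBP1 samples as triangles. The dotted line marks an FPKM of 1, the mean level needed for testing: VIM stands far above all others, and EPCAM, SNAI1 and CDH1 have means below the line.

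The order of the levels, per kilobase, was led by VIM, which ranked 24 of all 32679 genes by mean FPKM. CDH2 ranked 1649 and TWIST2 ranked 3281. SNAI2, ZEB1, TWIST1 and ZEB2 followed at ranks 4820, 5282, 7703 and 9093, and EPCAM, SNAI1 and CDH1 closed the order at ranks 11547, 16895 and 23838. SNAI2 and ZEB1 were neighbours whose levels did not differ beyond their spread, at 4.48 ± 2.45 and 4.51 ± 1.61 FPKM in shNC and 9.72 ± 6.01 and 7.96 ± 1.73 FPKM in shPQBP1. CDH2, by contrast, was higher than TWIST2 in every sample.

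ZEB1, the zinc finger repressor of CDH1 and of the miR-200 genes (ENSG00000148516, chr10:31318495-31529814, plus strand), was at 2.94, 4.45 and 6.15 FPKM in the shNC samples. In the shPQBP1 samples it was at 7.82, 9.76 and 6.31 FPKM. All 3 shPQBP1 samples were above all 3 shNC samples, but the lowest of them exceeded the highest control by little, and the control samples spread widely. The log2 fold change was 0.84 (SE 0.29, 95% interval 0.14 to 1.55), with an unadjusted p of 0.0254 and an adjusted p of 0.157 (limma). An exact two-sided permutation test gave p = 0.1, the smallest that 3 against 3 samples allow. Without shNC replicate 1 the log2 fold change was 0.57 (adjusted p = 0.208, limma), and over all alternatives it lay between 0.57 and 1.09 with adjusted p-values of 0.139 to 0.336. In bulk samples a larger amount of a transcript per cell and a larger share of cells carrying it cannot be told apart.

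The primer pair that the study lists for ZEB1 quantitative PCR is shown to place that amplicon on the gene.
ZEB1 forward primer: gatgatgaatgcgagtcagatgc
ZEB1 reverse primer: acagcagtgtcttgttgttgt

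Both primers lie in exon 4 of the canonical transcript, at chr10:31502353-31502375 and chr10:31502418-31502438 (hg38), and span 86 bases. They match 17 of the 23 ZEB1 transcripts of GENCODE release 44. The deposited FPKM is given per gene, and which ZEB1 transcripts it covers is not stated.

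ZEB1-AS1, a noncoding RNA read from the opposite strand, overlaps the start of ZEB1. It was at 0.67, 0.98 and 1.02 FPKM in shNC and at 1.24, 1.44 and 1.47 FPKM in shPQBP1. Its groups did not overlap either, with a log2 fold change of 0.60 and an adjusted p of 0.147 (limma). The counting is not stated to use strand, so reads of ZEB1 and ZEB1-AS1 in their shared stretch cannot be told apart. The ratio of ZEB1 to ZEB1-AS1 was 4.39, 4.54 and 6.03 in shNC and 6.31, 6.78 and 4.29 in shPQBP1, with overlapping groups (exact permutation p = 0.4).

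The 3 tested genes closest to the ZEB1 profile over the 6 samples, by root mean square distance between centred log2 values, were MTERF1 (0.134), MIR6859-1 (0.138) and CTSO (0.161). MTERF1, a mitochondrial transcription termination factor, was at 0.58, 0.75 and 1.24 FPKM in shNC and at 1.65, 1.61 and 1.24 FPKM in shPQBP1. CTSO, a cysteine protease, was at 1.24, 2.2 and 2.64 FPKM in shNC and at 3.73, 3.88 and 3.55 FPKM in shPQBP1. MIR6859-1 belongs to a set of near-identical copies, so its reads are uncertain. The adjusted p-values of the 3 genes were 0.122 to 0.167 (limma).

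ZEB2, the paralog of ZEB1 with the same E-box preference (ENSG00000169554, chr2:144364364-144521057, minus strand), was at 1.22, 2.30 and 2.17 FPKM in shNC and at 2.75, 2.37 and 2.01 FPKM in shPQBP1. The groups overlapped, and shNC replicate 1 alone was low. The log2 fold change was 0.35 (SE 0.26, 95% interval -0.28 to 0.98, adjusted p = 0.424, limma) and 0.07 without shNC replicate 1 (adjusted p = 0.787). The same value of 0.07 was obtained after removing trends on GC content and transcript length (adjusted p = 0.780). The ratio of ZEB1 to ZEB2 was 2.41, 1.93 and 2.83 in shNC and 2.84, 4.12 and 3.14 in shPQBP1. The groups did not overlap, at the smallest p the exact permutation test allows (p = 0.1). The highest shNC ratio (2.83) and the lowest shPQBP1 ratio (2.84) nearly met, so rounding of the FPKM could undo this separation.

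SNAI1 (Snail, ENSG00000124216, chr20:49982980-49988886, plus strand), the zinc finger repressor often placed first in EMT, was at 0.25, 0.31 and 0.13 FPKM in shNC. In shPQBP1 it was at 0.09, 0.08 and 0.06 FPKM. All 3 shPQBP1 samples lay below all 3 shNC samples, at a level far under the mean of 1 FPKM required for testing. In a fit of all genes above 0 in at least 1 sample the log2 fold change of SNAI1 was -0.86 (SE 0.28, 95% interval -1.54 to -0.19), with an unadjusted p of 0.0201 and an adjusted p of 0.26 (limma). Values this low carry a coarse rounding step of 0.01 FPKM and an unknown number of reads.

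SNAI2 (Slug, ENSG00000019549), the other SNAIL family repressor, was at 7.30, 3.24 and 2.89 FPKM in shNC and at 5.46, 7.11 and 16.59 FPKM in shPQBP1. The groups overlapped: shNC replicate 1 was above 2 of the 3 shPQBP1 samples, and shPQBP1 replicate 3 was far above all others. The log2 fold change of 1.06 (SE 0.51, 95% interval -0.18 to 2.30) had an adjusted p of 0.26 (limma) and an exact permutation p of 0.3. It was 0.59 without shPQBP1 replicate 3 (adjusted p = 0.499) and 1.47 without shNC replicate 1 (adjusted p = 0.153). Single libraries thus set much of its size.

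TWIST1, a basic helix-loop-helix factor (ENSG00000122691, chr7:19020991-19117636, minus strand), was at 3.85, 2.90 and 2.56 FPKM in shNC and at 3.75, 2.82 and 3.26 FPKM in shPQBP1. The groups overlapped almost fully, with a log2 fold change of 0.09 (SE 0.18, 95% interval -0.35 to 0.53, adjusted p = 0.783, limma). Its sign turned to -0.04 without shNC replicate 3 and to -0.01 without shPQBP1 replicate 1. TWIST2, its close paralog (ENSG00000233608, chr2:238848032-238910534, plus strand), was at 11.65, 10.06 and 10.98 FPKM in shNC and at 11.71, 12.55 and 11.14 FPKM in shPQBP1. These groups overlapped as well, with a log2 fold change of 0.11 (SE 0.09, 95% interval -0.11 to 0.34, adjusted p = 0.454, limma) that was 0.28 after the GC and length correction (adjusted p = 0.0704). The ratio of TWIST2 to TWIST1 ranged from 3.03 to 4.29 in shNC and from 3.12 to 4.45 in shPQBP1 (exact permutation p = 0.8).

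**Figure D2:**
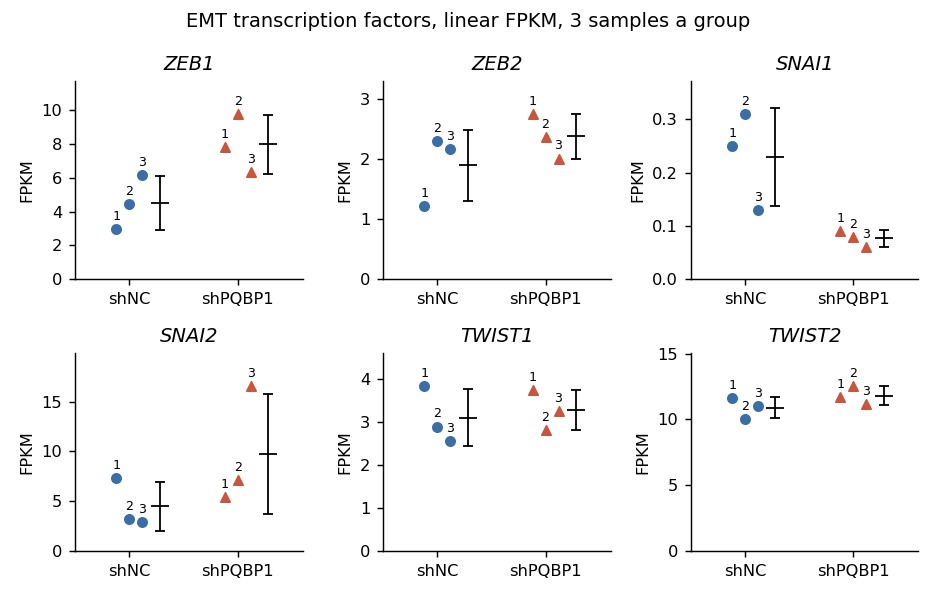
FPKM of the 6 EMT transcription factors on linear axes that start at 0, with each sample as a numbered point and the mean ± SD (n = 3) beside it. ZEB1 and SNAI1 are the factors whose groups do not overlap, in opposite directions, and the wide bar of SNAI2 in shPQBP1 is set by replicate 3.

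The FPKM of the 6 factors summed to 27.21, 23.26 and 24.88 in shNC and to 31.58, 34.69 and 39.37 in shPQBP1. TWIST2 made up 42.8% to 44.1% of that sum in shNC and 28.3% to 37.1% in shPQBP1, and it was the leading factor in every sample but shPQBP1 replicate 3. In that sample SNAI2 led, with 42.1% of the sum. ZEB1 ran from 10.8% to 24.7% in shNC and from 16.0% to 28.1% in shPQBP1, and SNAI1 never exceeded 1.3%. The sum was given no test, since its genes were chosen together.

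CDH1, the epithelial cadherin (ENSG00000039068, chr16:68737292-68835537, plus strand), was at 0.01, 0.02 and 0.02 FPKM in shNC and at 0.03, 0.00 and 0.06 FPKM in shPQBP1. These values were a few rounding steps from 0 in both groups, and no difference was detectable at this level. In the fit of all genes above 0 the log2 fold change was 0.13 (SE 0.19, adjusted p = 0.753, limma), on a scale that understates changes of such low values. EPCAM, an epithelial adhesion molecule of the cell surface (ENSG00000119888, chr2:47345158-47387601, plus strand), was at 0.91, 1.13 and 1.02 FPKM in shNC and at 1.02, 0.79 and 0.82 FPKM in shPQBP1. Its groups overlapped and its mean of 0.948 FPKM fell just under the filter, with -0.20 (SE 0.17, adjusted p = 0.628, limma) in the wider fit.

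CDH2, the neural cadherin gained in the cadherin switch (ENSG00000170558, chr18:27932879-28177946, minus strand), was at 23.18, 20.34 and 20.89 FPKM in shNC and at 22.69, 24.32 and 23.34 FPKM in shPQBP1. The groups overlapped only through shNC replicate 1. The log2 fold change was 0.13 (SE 0.08, 95% interval -0.07 to 0.32, adjusted p = 0.357, limma), and 0.18 without shNC replicate 1 (adjusted p = 0.144). CDH2 was above CDH1 in each of the 6 samples, in both groups.

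VIM, the intermediate filament protein of mesenchymal cells (ENSG00000026025, chr10:17228241-17237593, plus strand), was at 1226.58, 1184.74 and 1111.87 FPKM in shNC. In shPQBP1 it was at 1273.61, 1342.76 and 1271.71 FPKM. All shPQBP1 samples were above all shNC samples, by a small margin relative to the level. The log2 fold change was 0.14 (SE 0.06, adjusted p = 0.217, limma; exact permutation p = 0.1). VIM passed the threshold under 2 alternatives, quantile normalization (0.39, adjusted p = 0.0441) and removal of GC and length trends (0.27, adjusted p = 0.0497). Without shNC replicate 1 its log2 fold change was 0.17 (adjusted p = 0.131, limma). VIM-AS1, which overlaps VIM on the opposite strand, was at 2.99, 3.60 and 3.67 FPKM in shNC and 4.19, 3.80 and 4.09 FPKM in shPQBP1 (adjusted p = 0.253, limma). The ratio of VIM to CDH2 was 52.9, 58.2 and 53.2 in shNC and 56.1, 55.2 and 54.5 in shPQBP1, with overlapping groups (exact permutation p = 0.9).

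**Figure D3:**
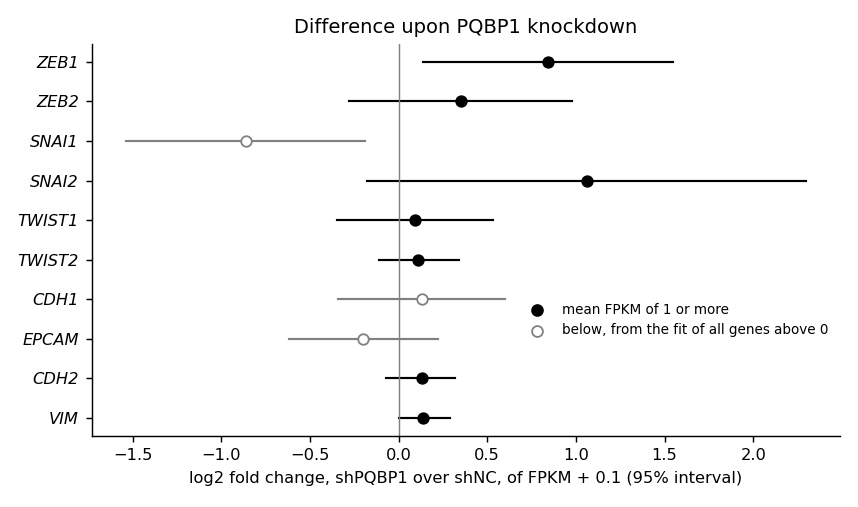
Log2 fold change of each EMT gene, shPQBP1 over shNC, on the log2(FPKM + 0.1) scale, with 95% intervals from limma. Filled points are the 7 tested genes and open points the 3 below the filter, from the fit of all genes above 0; the intervals of ZEB1 and SNAI1 lie on one side of 0 before adjustment for multiple testing.

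Of the 10 genes, 7 passed the filter and 0 were called at an adjusted p under 0.05 (limma), where 2.91% of the 11413 genes tested were called. With no adjustment, 1 of the 7 (ZEB1) passed 0.05, against 23.6% of all tested genes. The groups did not overlap for 2 of the 7 (ZEB1 and VIM, both higher in shPQBP1), against 34.4% of all tested genes. The median log2 fold change of the 7 was 0.14, beside 0.02 over all tested genes. None of these shares was above its background.

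**Figure D4:**
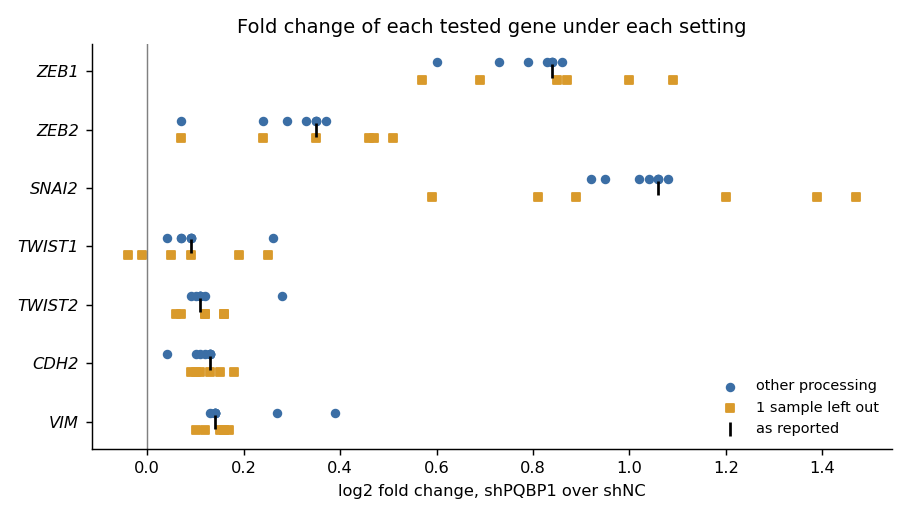
Log2 fold change of the 7 tested EMT genes under each way of processing (circles), with 1 sample left out (squares) and as reported (black bars). ZEB1 stays between 0.57 and 1.09, SNAI2 between 0.59 and 1.47, and TWIST1 crosses 0.

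Genes around the core set were described from 8 lists, of which 94 genes of 165 were tested and 5 were called (5.32%), 4 higher and 1 lower, with a median log2 fold change of 0.10. The share called over all tested genes was 2.91% and their median 0.02. With no adjustment, 29 of the 94 (30.9%) passed 0.05, against 23.6% of all tested genes. The lists were chosen with results known, so nothing particular to them is read from these shares. Among 17 tested mesenchymal genes, 2 were called (11.8%, against 2.91% of all tested genes), both higher in shPQBP1. At an unadjusted p under 0.05 there were 10 (58.8%, against 23.6%), 5 higher and 5 lower (limma). FN1, the matrix protein fibronectin, was at 42.51, 44.57 and 43.08 FPKM in shNC and at 127.42, 154.68 and 149.54 FPKM in shPQBP1. It rose by 1.72 on the log2 scale (SE 0.09, adjusted p = 0.00176, limma), and was called with each sample left out in turn. With the replicate number as a block FN1 was not called (adjusted p = 0.0678, limma), in a fit that called 0 of 11413 genes. LOX, a collagen cross-linking enzyme, rose by 0.75 (SE 0.11, adjusted p = 0.0246), a call kept in 2 of the 6 fits with a sample left out. NT5E (0.59, adjusted p = 0.0513), CALD1 (0.56, adjusted p = 0.201) and FBN1 (0.62, adjusted p = 0.115) did not pass. The same held for COL5A1, a fibrillar collagen gene, which had a log2 fold change below 0 (-0.68, adjusted p = 0.0593). The list therefore held values of both signs.

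Among 18 tested epithelial adhesion and keratin genes, 2 rose and 1 fell, with a median of 0.22. These 3 calls were 16.7% of the list, against 2.91% of all tested genes. At an unadjusted p under 0.05 there were 6 (33.3%, against 23.6%), 4 higher and 2 lower (limma). CLDN1, a tight junction claudin, was at 80.29, 92.44 and 95.47 FPKM in shNC and at 148.81, 158.39 and 157.28 FPKM in shPQBP1, and rose by 0.80 (SE 0.09, adjusted p = 0.0134, limma). CD24, a glycosylated surface protein, went from 1.84 ± 0.33 to 4.05 ± 0.09 FPKM (SD, n = 3) and rose by 1.11 (adjusted p = 0.0195). EVPL, the desmosome-linked envoplakin, fell by 0.90 (adjusted p = 0.025). With 1 sample left out in turn, CLDN1 was called in 3 of 6 fits, CD24 in 2 and EVPL in 1, the highest adjusted p-values being 0.0848, 0.108 and 0.112. KRT18 was abundant, with 81.4 ± 7.3 FPKM in shNC and 89.6 ± 4.9 FPKM in shPQBP1 (adjusted p = 0.358), so these cells held keratin beside vimentin while CDH1 was near 0. The epithelial and the mesenchymal list each held genes that rose and, at an unadjusted p under 0.05 (limma), genes that were lower.

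None of the 6 tested genes of the other EMT transcription factors was called (limma). At an unadjusted p under 0.05 there were 2 (33.3%, against 23.6% of all tested genes). SOX4 was at 1.48 ± 0.13 FPKM in shNC and 2.51 ± 0.34 FPKM in shPQBP1 (log2 fold change 0.72, adjusted p = 0.0538), and HMGA2, an architectural factor, at 11.3 ± 2.3 and 15.9 ± 0.7 FPKM (0.52, adjusted p = 0.133). SOX9 had a log2 fold change of -0.09 (adjusted p = 0.467). Of the epithelial state regulators, only KLF4 and KLF5 were tested. KLF4 was at 15.58, 15.23 and 18.21 FPKM in shNC and at 13.48, 5.34 and 12.96 FPKM in shPQBP1 (-0.73, adjusted p = 0.266), and KLF5 had a log2 fold change of 0.07 (adjusted p = 0.795). GRHL2, which maintains epithelial identity, did not exceed 0.05 FPKM, and ESRP1, an epithelial splicing regulator, lay between 0.23 and 0.45 FPKM.

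None of the 9 tested catenins and classical cadherins was called, with 1 at an unadjusted p under 0.05 (11.1%, against 23.6% of all tested genes). It was CDH5, the cadherin of endothelium (log2 fold change 0.44, adjusted p = 0.151, limma). CTNNA1, which links cadherins to actin, was at 61.6 ± 2.9 and 64.1 ± 3.5 FPKM (log2 fold change 0.06, adjusted p = 0.649, limma) and VCL at 30.4 ± 0.4 and 28.2 ± 0.6 FPKM (-0.11, adjusted p = 0.337). None of the 23 corepressors and E-box partners was called, with a median of -0.03. At an unadjusted p under 0.05 there were 4 (17.4%, against 23.6% of all tested genes): the demethylase KDM1A (-0.29), its partner RCOR1 (-0.36), ID2 (-0.44) and ID3 (-0.47), at adjusted p-values of 0.0864 to 0.123 (limma). ID1, which binds helix-loop-helix proteins and blocks their DNA binding, had a log2 fold change of -0.17 (adjusted p = 0.287), and DNMT1, the maintenance DNA methyltransferase, 0.17 (adjusted p = 0.282). None of the 18 tested turnover enzymes of SNAIL and ZEB was called, with a median of 0.15. At an unadjusted p under 0.05 there were 5 (27.8%, against 23.6% of all tested genes). They were FBXW11 (-0.23), FBXL14 (-0.35), PPIL2 (-0.28), SIAH2 (0.27) and PRKD1 (0.32), at adjusted p-values of 0.141 to 0.207 (limma). CSNK1A1 had a log2 fold change of 0.07 (adjusted p = 0.575) and PSMD14 0.14 (adjusted p = 0.391). Of the antisense and microRNA neighbours, ZEB1-AS1 and VIM-AS1 were the 2 that could be tested, and neither was called.

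**Figure D5:**
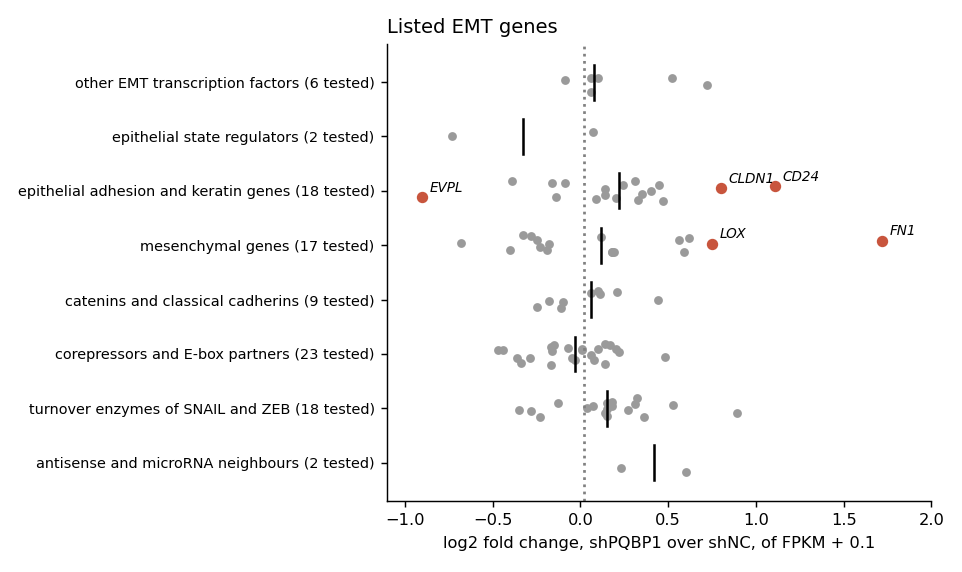
Log2 fold change, shPQBP1 over shNC, of the tested genes of 8 lists around the core EMT set, one point per gene, with the median of each list as a black bar and that of all tested genes as a dotted line. The 5 called genes are coloured and named, and all other points are genes not called at an adjusted p under 0.05.

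Among the markers of the cell line, 1 of 5 tested was called (20.0%, against 2.91% of all tested genes). MSLN, the mesothelin of ovarian and mesothelial surfaces, was at 13.5 ± 1.3 FPKM in shNC and 23.8 ± 1.5 FPKM in shPQBP1 (log2 fold change 0.82, adjusted p = 0.0187, limma), and its call was kept in 1 of 6 fits with a sample left out. PAX8, a Müllerian transcription factor, was at 14.3 ± 1.8 and 20.8 ± 3.0 FPKM (0.53, adjusted p = 0.102), and KRT7 had a log2 fold change of -0.16 (adjusted p = 0.329). WT1 and WFDC2, below the filter and not tested, were lower in all shPQBP1 samples. WT1 was at 0.63, 0.71 and 0.68 FPKM in shNC and at 0.31, 0.34 and 0.45 FPKM in shPQBP1. WFDC2 was at 0.08, 0.06 and 0.04 FPKM in shNC and at 0 in shPQBP1. PECAM1, an endothelial marker, was at 0.23 to 0.25 FPKM in shNC and at 0.02 to 0.06 FPKM in shPQBP1. CDH5, which is not on the marker list, went the other way, at 2.11, 2.96 and 2.49 FPKM in shNC and 3.10, 3.55 and 3.64 FPKM in shPQBP1. The part of these differences in the values of the EMT genes was not tested.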

How the data were processed

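RNA-seq of 3 shNC and 3 shPQBP1 HEY samples was used. According to the submitters' processing notes the reads were mapped to hg38 and handled with HISAT2 (2.2.0), SAMtools (1.9), StringTie (1.3.0) and edgeR; the annotation release and strand setting are not given in the sources used here. The authors deposited FPKM per gene and sample, rounded to 2 decimals; 0 columns of per-sample values were left out. Columns holding the authors' own comparison (fold change, log2 fold change, p-value, q-value and calls) were not used. Depth is unknown: a search of low FPKM values for steps of whole reads gave scores of 0.152 to 0.186 per sample. These scores had no reference level to be judged by, so no depth was taken from them. The spread between samples therefore stands for all error.

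FPKM values were tested as log2(FPKM + 0.1) with limma (3.58.1, R 4.3.3), with a mean-variance trend, two-sided, over genes whose FPKM averaged 1 or more, with Benjamini-Hochberg adjustment over all tested genes. A fold change on this scale understates that of low genes. Single genes and ratios were also compared with an exact two-sided permutation test (scipy 1.17.1). The scripts were tested on simulated data. Alternatives were other scalings, filters, pseudocounts and variance models, the replicate number as a block, removal of GC content and transcript length trends, and each sample left out.

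The members and lists were chosen with earlier results of these data known. Named genes are all members and, per list, those at an adjusted p under 0.05, those at an unadjusted p under 0.05 with an absolute log2 fold change over 0.5, and the 2 with the highest mean. CDH5, KDM1A, RCOR1, ID2, ID3, FBXW11, FBXL14, PPIL2, SIAH2, PRKD1, GRHL2, ESRP1, WT1, WFDC2, MUC16, PTPRC and the microRNA genes were named after their values were seen. One gene that this rule names is not reported here.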

Additional observations from a re-analysis of the deposited data

How the results depend on the processing

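Of 101 recomputed log2 fold changes of the 7 tested EMT genes, 97 kept their direction and side of the threshold. VIM passed it under quantile normalization (0.39) and removal of GC content and transcript length trends (0.27), which gave 1 called member each instead of 0, and TWIST1 reversed without shNC replicate 3 (-0.04) and without shPQBP1 replicate 1 (-0.01), its range with a sample left out being -0.04 to 0.25. No member was called with any 1 sample left out (0 in each of 6 fits). Called genes numbered 332 as reported, 190 with all genes above 0, 211 at a mean FPKM of at least 10, 0 with the replicate block, 938 with GC content and length trends removed, and 30 (without shPQBP1 replicate 3) to 466 (without shNC replicate 1) with a sample left out, 93 without shNC replicate 2, 66 without shNC replicate 3, 46 without shPQBP1 replicate 1 and 36 without shPQBP1 replicate 2. Listed EMT genes called numbered 5 as reported, 9 under quantile normalization, 17 with GC content and length trends removed, 0 with the replicate block, and 1 (without any 1 shPQBP1 sample) to 8 (without shNC replicate 1) with a sample left out, 2 without shNC replicate 3. The causes were not tested.

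The replicate numbers did not pair the samples: deviations of same-numbered samples correlated at -0.186, -0.138 and -0.011. With the replicate block, 0 members were called, and ZEB1 had a log2 fold change of 0.84 (adjusted p = 0.299, limma). Medians over all genes stayed between -0.02 and 0.03 in every setting. Unknown depth limits SNAI1, CDH1 and EPCAM most.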
